A study of Mus musculus with 17 samples.

Results

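The alpha and beta crystallins measured in these retinal libraries were 8 genes of the 32177 in the count table. They were the alpha crystallins Cryaa and Cryab, the acidic beta crystallins Cryba1, Cryba2 and Cryba4, and the basic beta crystallins Crybb1, Crybb2 and Crybb3. The genes were selected on their measured levels in these same libraries, where single libraries stood far above the others, so their levels and differences are given as a description, with standard errors and without p-values. Each symbol was matched to a row of the table by its Ensembl identifier, 1 through the authors' own pairing of symbols and identifiers and 7 through the mouse annotation. Total retinal RNA was sequenced from mice of the BALB/cJ background labelled WT or Rabgef1 KO at postnatal day 6 (P6), P10 and P14. All of them came from intercrosses of Rabgef1+/- animals, whose founders lacked the RD1 and RD10 retinal degeneration mutations, and both sexes were used. The P14 KO group held 2 libraries and each of the other 5 groups held 3, which gives 17. The study's protocol counts wildtype and heterozygous littermates as controls, and the labels say WT without separating them. Each library is one sample of its group. The labels give no separate account of the animals behind a library, so the errors below measure the spread between these libraries.

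Crystallins are the most abundant soluble proteins of the lens, where they are packed densely in the long fibre cells and give the tissue its transparency. Alpha crystallins are small heat shock proteins that act as chaperones and hold partly unfolded proteins in solution. Cryab is also made in muscle, heart, brain and retina and responds to cell stress, whereas Cryaa is made mostly in the lens and at lower levels in the retina. Beta and gamma crystallins share a fold built from Greek key motifs and are mainly structural, and gamma crystallins are the classical products of differentiating lens fibres. In the retina, transcripts of the alpha and beta families have been described in photoreceptors, ganglion cells and Müller glia. A lens fragment that stays on a dissected retina brings the same transcripts. In a bulk library, more cells of a type and more RNA per cell cannot be told apart.

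The authors deposited estimated counts per gene, whose totals per library lay between 15488527 and 25637414. They are given here as CPM, the usual unit of counts scaled to the size of each library, after TMM scaling for differences in composition. A count of 3, taken as the floor of detection, corresponded to between 0.114 and 0.1998 CPM. Rabgef1 mRNA was checked first, since it was the targeted gene. Its level at P6 was 40.4 to 42.5 CPM in the libraries labelled WT and 44.4 to 45.5 CPM in those labelled KO, so the P6 labels were not reflected in Rabgef1 mRNA. At P10 the ranges were 68.7 to 101.2 CPM and 68.4 to 83.0 CPM, and at P14 they were 211 to 225 CPM and 142 to 162 CPM. KO minus WT at P14 came to -0.53 on the log2 scale, with a standard error of 0.13, an unadjusted p of 0.000755 and an adjusted p of 1 (edgeR with Benjamini-Hochberg adjustment). The samples are therefore called libraries labelled WT and KO, and every direction given for KO rests on those labels.

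Before the crystallins are compared, 3 libraries have to be set apart. The 8 gamma crystallins summed to 76.6 CPM in P10 WT replicate 2, 117 CPM in P10 KO replicate 1 and 88.8 CPM in P14 WT replicate 1. In the other 14 libraries the same sum lay between 0.224 and 11.3 CPM. Differences of the 8 genes, and counts in the other gene lists that changed, are also given without these 3 libraries, a choice made after their values were seen.

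The genes lie on 5 chromosomes of the mouse genome (GRCm38, GENCODE release M21). Cryaa is at chromosome 17 from 31677807 to 31681733 on the forward strand, and Cryab at chromosome 9 from 50751325 to 50756636 on the forward strand. Cryba1 is at chromosome 11 from 77718615 to 77725283 and Cryba2 at chromosome 1 from 74889934 to 74893143, both on the reverse strand. The other 4 genes form neighbouring pairs on chromosome 5. Cryba4 (112246493 to 112252518, reverse) and Crybb1 (112255815 to 112269585, forward) are separated by 3296 bp and point away from each other. Crybb2 (113058258 to 113070117, reverse) and Crybb3 (113075839 to 113081584, reverse) are separated by 5721 bp and point the same way.

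The promoters of these genes are shown where they share a short element. TGCTGAC is the core of elements bound by Maf family factors, which regulate crystallin genes in the lens. It was searched on both strands, as TGCTGAC and GTCAGCA, in the windows from 250 bases before to 50 bases after each start given by RefSeq (GRCm38.p6). It was present in 4 of the 7 members with a window, and in 1 of 8 gamma crystallin windows. Of all 32851 promoter windows, 4.67% held it. The windows of Cryba2, Crybb2 and Crybb3 did not contain these letters, and Cryab had no entry. The stretches that hold it in the beta crystallins follow, read in the direction of the gene, with the element in capitals and 30 bases on either side. They lie at chr11:77725314-77725380 on the reverse strand for Cryba1, chr5:112252617-112252730 on the reverse strand for Cryba4, and chr5:112255706-112255772 on the forward strand for Crybb1.
Cryba1: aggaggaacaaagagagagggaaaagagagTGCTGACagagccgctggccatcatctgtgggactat
Cryba4: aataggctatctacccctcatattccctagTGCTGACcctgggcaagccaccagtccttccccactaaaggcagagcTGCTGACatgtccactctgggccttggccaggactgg
Crybb1: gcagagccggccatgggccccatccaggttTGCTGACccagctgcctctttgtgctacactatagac
The element began 57 bases before the start in Cryba1 and 84 bases before it in Crybb1. In Cryba4 it occurred at 182 and at 135 bases before the start. In Cryaa it began 108 bases before the RefSeq start, where GENCODE annotates the 5′ UTR of a longer transcript, so its sequence is not printed. All 5 matches had the same orientation relative to the gene. A match is a description of the letters and does not show that a factor binds there.

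Cryaa, the alpha crystallin made chiefly in the lens, ranged from 0.0525 to 696 CPM and had the highest level of the 8 genes in any library. At P6 its level was 0.799, 0.233 and 0.0525 CPM in WT replicates 2, 4 and 6, and 2.56, 0.281 and 1.13 CPM in KO replicates 1, 3 and 5. These P6 values rest on 1 to 45 counts per library, and the groups overlapped. At P10 Cryaa stood at 0.370, 69.6 and 1.77 CPM in WT replicates 1, 2 and 3, and at 696, 3.25 and 12.3 CPM in KO replicates 1, 2 and 3. One library of each genotype was thus far above its own group. At P14 the level was 291, 12.1 and 4.73 CPM in WT replicates 1, 3 and 4, and 20.5 and 0.808 CPM in KO replicates 1 and 2. The highest library exceeded the lowest of the same group 188-fold in P10 WT, 214-fold in P10 KO and 61.6-fold in P14 WT. The SD was therefore larger than the mean in each of those groups, as in P10 KO with 237 ± 397 CPM (SD, n = 3). Outside the 3 libraries set apart, Cryaa was still uneven. It reached 12.3 CPM in P10 KO replicate 3, 12.1 CPM in P14 WT replicate 3 and 20.5 CPM in P14 KO replicate 1, against a median of 1.45 CPM over the 14 libraries.

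Cryab, the broadly made alpha crystallin and stress-inducible chaperone, was the only one of the 8 with more than 10 CPM in every library. At P6 it measured 21.2, 15.5 and 18.4 CPM in WT replicates 2, 4 and 6, and 34.3, 16.4 and 17.3 CPM in KO replicates 1, 3 and 5. KO replicate 1 stood above the other 5 libraries of that age, which lay together. At P10 its values were 25.8, 49.98 and 36.97 CPM in WT replicates 1, 2 and 3, and 325, 45.8 and 32.9 CPM in KO replicates 1, 2 and 3. At P14 they were 151, 28.1 and 44.1 CPM in WT replicates 1, 3 and 4, and 34.5 and 31.5 CPM in KO replicates 1 and 2. Of the libraries high in gamma crystallins, P10 KO replicate 1 and P14 WT replicate 1 were also far above the rest in Cryab, 7.10-fold and 3.30-fold over the highest of the other 14 libraries. The third, P10 WT replicate 2, was 1.09-fold over that library, which was P10 KO replicate 2. Group means were 18.3 ± 2.85 CPM in P6 WT and 37.6 ± 12.1 CPM in P10 WT (SD, n = 3), while P10 KO had 134 ± 165 CPM and P14 WT 74.5 ± 66.8 CPM. Over the 14 libraries Cryab lay between 15.5 and 45.8 CPM while Cryaa in the same libraries lay between 0.0525 and 20.5 CPM.

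Among the acidic beta crystallins, which pair with basic ones in the lens, Cryba1 was the highest in every library but P6 WT replicate 2, where Cryba4 was above it at 0.733 CPM. Its level at P6 was 0.266, 1.16 and 1.63 CPM in WT replicates 2, 4 and 6, and 1.93, 1.35 and 1.95 CPM in KO replicates 1, 3 and 5. At P10 it was 0.925, 26.8 and 1.59 CPM in WT replicates 1, 2 and 3, and 105, 2.19 and 5.08 CPM in KO replicates 1, 2 and 3. At P14 it was 162, 9.34 and 2.95 CPM in WT replicates 1, 3 and 4, and 4.19 and 1.06 CPM in KO replicates 1 and 2. P14 WT replicate 1 had the most Cryba1, although P10 KO replicate 1 led in the other 7 genes. Cryba2 was close to the floor at P6, from 0.0592 to 0.796 CPM, and reached 5.66, 28.5 and 21.9 CPM in P10 WT replicate 2, P10 KO replicate 1 and P14 WT replicate 1. It did not exceed 1.33 CPM in any of the other 14 libraries, and 5 libraries had 3 counts or fewer. Cryba4 reached 6.72, 19.3 and 8.68 CPM in the same 3 libraries, and elsewhere its range was 0.0850 to 1.66 CPM.

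The basic beta crystallins held one gene with a background of its own. Crybb2, the most abundant beta crystallin of the mature lens, had no count in 4 libraries and 3 counts or fewer in 7, where the floor allows up to 0.1998 CPM. It reached 10.6, 60.9 and 33.3 CPM in P10 WT replicate 2, P10 KO replicate 1 and P14 WT replicate 1, and at most 1.95 CPM elsewhere, in P14 KO replicate 1. Crybb1 measured 0.133, 0.465 and 0.315 CPM in P6 WT replicates 2, 4 and 6, and 1.02, 0.842 and 1.18 CPM in P6 KO replicates 1, 3 and 5. The P6 groups did not overlap, at 2 to 8 counts against 15 to 20. At P10 Crybb1 was 0.555, 8.90 and 0.295 CPM in WT replicates 1, 2 and 3, and 24.1, 0.729 and 1.88 CPM in KO replicates 1, 2 and 3. At P14 its values were 9.07, 1.22 and 0.886 CPM in WT replicates 1, 3 and 4, and 0.872 and 0.638 CPM in KO replicates 1 and 2. The lowest WT and the highest KO library at P14 were thus almost level, and both had 21 counts.

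Crybb3 differed from the other beta crystallins in the libraries with little gamma crystallin. At P6 it was 1.27, 1.98 and 1.89 CPM in WT replicates 2, 4 and 6, and 2.27, 1.68 and 4.09 CPM in KO replicates 1, 3 and 5. At P10 it was 2.40, 11.6 and 1.71 CPM in WT replicates 1, 2 and 3, and 51.2, 0.673 and 1.08 CPM in KO replicates 1, 2 and 3. At P14 it was 16.8, 1.53 and 0.971 CPM in WT replicates 1, 3 and 4, and 2.41 and 0.935 CPM in KO replicates 1 and 2. It was above 3 counts in all 17 libraries, as were Cryab and Cryba1. Its highest value among the 14 libraries was in P6 KO replicate 5, whereas each of the other 7 genes had that value at P10 or P14.

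**Figure D1:**
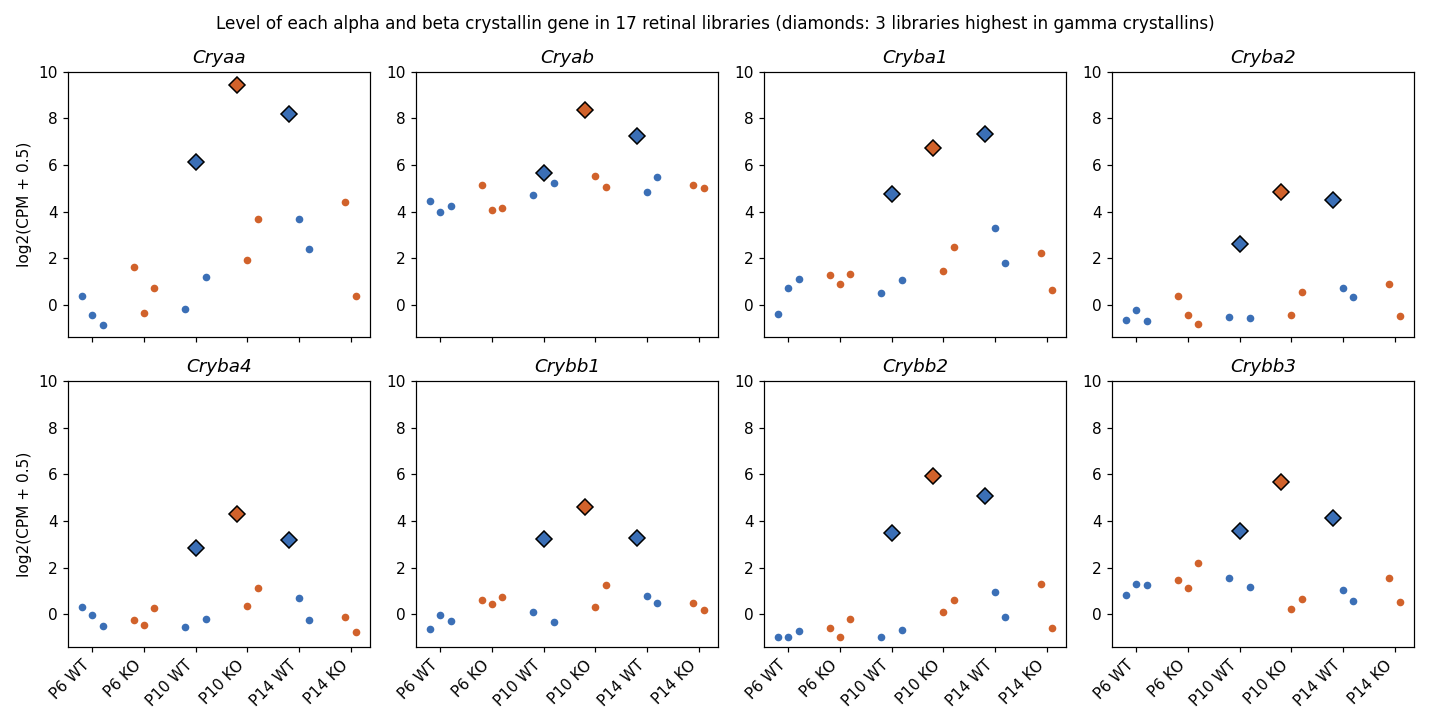
Level of each gene as log2(CPM + 0.5) in the 17 libraries, by group, with WT in blue and KO in orange. Each point is a library, and diamonds mark P10 WT replicate 2, P10 KO replicate 1 and P14 WT replicate 1, which stand above the other libraries in all 8 genes, by only 1.09-fold for Cryab in P10 WT replicate 2.

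Levels of different genes were compared per length, as TPM, the length-scaled counterpart of CPM, computed from the transcript counts and annotated lengths. Cryab had the highest TPM of the 8 genes in 14 libraries and Cryaa in 3, which were the same libraries that lead in gamma crystallins. Crybb3 came second in each of the 6 P6 libraries. The P10 KO replicate 1 library had 1253 TPM of Cryaa, 782 TPM of Cryab, 304 TPM of Cryba1 and 176 TPM of Crybb2. In P14 WT replicate 1 Cryaa had 548 TPM, Cryba1 488 TPM and Cryab 380 TPM. In P10 WT replicate 2 Cryaa and Cryab were nearly level, at 120 and 115 TPM, a difference within the spread of either gene between libraries.

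The make-up of the pooled counts of the 8 genes shifted in the same libraries. Cryab supplied between 50.2% and 88.9% of the counts in the 14 libraries. Its share was 26.3% (95% Wilson interval 24.8 to 27.9) in P10 WT replicate 2, 24.8% (24.2 to 25.4) in P10 KO replicate 1 and 21.8% (21.2 to 22.4) in P14 WT replicate 1. Cryaa supplied 36.7% (35.0 to 38.3), 53.2% (52.5 to 53.8) and 41.9% (41.2 to 42.7) in these libraries, and from 0.231% to 31.01% elsewhere. The 3 libraries did not share one make-up. Cryba1 supplied 14.1% (12.97 to 15.4), 7.99% (7.64 to 8.35) and 23.4% (22.8 to 24.0) in them, and the intervals do not overlap. Crybb2 supplied 5.59% (4.85 to 6.44), 4.65% (4.38 to 4.93) and 4.79% (4.49 to 5.11), and those intervals do. Intervals and floors cover counting error only.

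**Figure D2:**
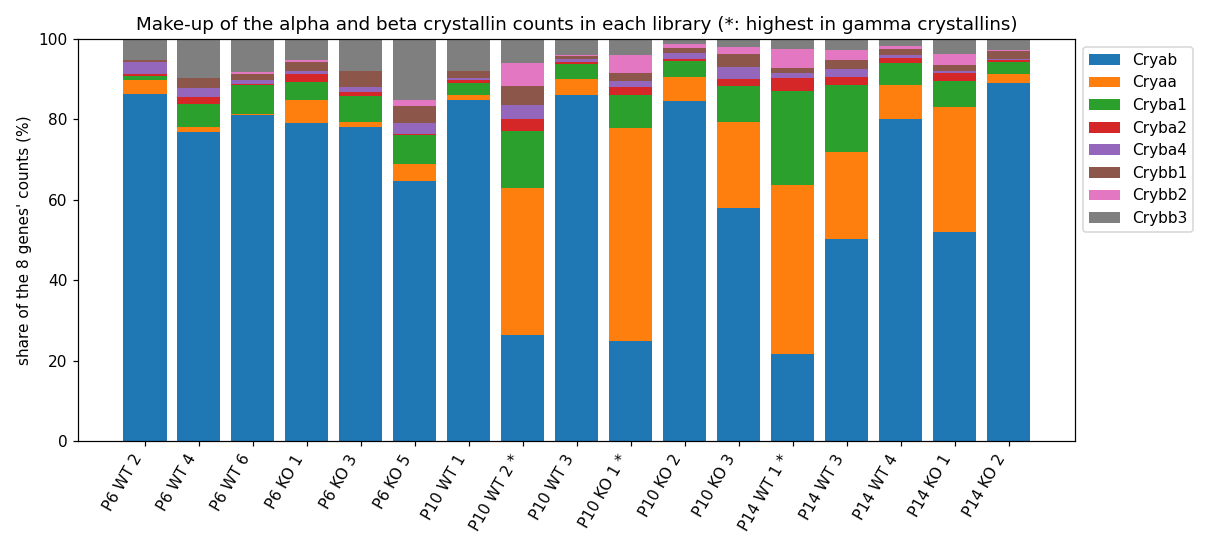
Share of each gene in the counts of the 8 genes, in percent, for each of the 17 libraries, with an asterisk on the 3 libraries highest in gamma crystallins. Cryab (blue) fills at least 50.2% of the bar in the 14 unmarked libraries and at most 26.3% in the marked ones, where Cryaa (orange) fills 36.7% to 53.2%.

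The other lens genes were measured beside the alpha and beta crystallins in each library. The list of gamma crystallins held 8 genes and that of lens fibre genes 13. Several gamma crystallins are close copies of each other, so how the authors' counting divided reads among them is uncertain. Their level is therefore given as a sum, and values of single genes carry that uncertainty. Each of the 8 had its highest count in one of the 3 libraries, for example 808 counts of Crygs in P14 WT replicate 1 and 346 of Crygd in P10 KO replicate 1. The highest counts of these genes in the other 14 libraries were 49 and 46. Since the 3 libraries were set apart by the sum of the 8, such peaks follow largely from that choice. Gamma crystallins made up 35.4% (95% Wilson interval 33.9 to 37.0) of the counts of Cryaa, the beta and the gamma crystallins in P10 WT replicate 2. They made up 10.7% (10.2 to 11.1) in P10 KO replicate 1 and 14.05% (13.5 to 14.6) in P14 WT replicate 1. In the other 14 libraries that share ran from 4.65% in P6 KO replicate 3 to 38.3% in P6 WT replicate 2, on 4 to 259 gamma crystallin counts.

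Some lens fibre genes separated the 3 libraries further. Mip, the lens aquaporin, had 209 counts in P10 KO replicate 1 and 440 in P14 WT replicate 1, but 22 in P10 WT replicate 2 and 6 to 25 in the other 14 libraries. Gja3, a gap junction gene of lens fibres, had 111, 44 and 1 counts in the same order and at most 2 elsewhere. The filensin gene Bfsp1 was also highest in these libraries, with 78, 72 and 37 counts against 14 to 33 elsewhere. Grifin had 59, 26 and 6 counts in the same order and at most 3 elsewhere. Lctl had 18, 24 and 2 counts against 0 in the other 14 libraries. Bfsp2, Lenep, Lgsn, Birc7 and Hsf4 did not set these libraries apart. Bfsp2 had 182, 121 and 65 counts in the same order, but 168 in P14 WT replicate 4. Lenep had 96 counts in P14 WT replicate 1, 0 in P10 KO replicate 1 and up to 64 in the other 14 libraries. Lgsn had 30, 25 and 23 counts against up to 29 elsewhere, and Birc7 and Hsf4 had their highest counts outside the 3 libraries. Lim2 had at most 4 counts and Dnase2b at most 1 in any library. The markers of cornea summed to 1.14 to 3.43 CPM in the 17 libraries, with Krt14 and Kera at 3 counts or fewer throughout. The part of lens RNA in the levels of the alpha and beta crystallins was not tested.

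**Figure D3:**
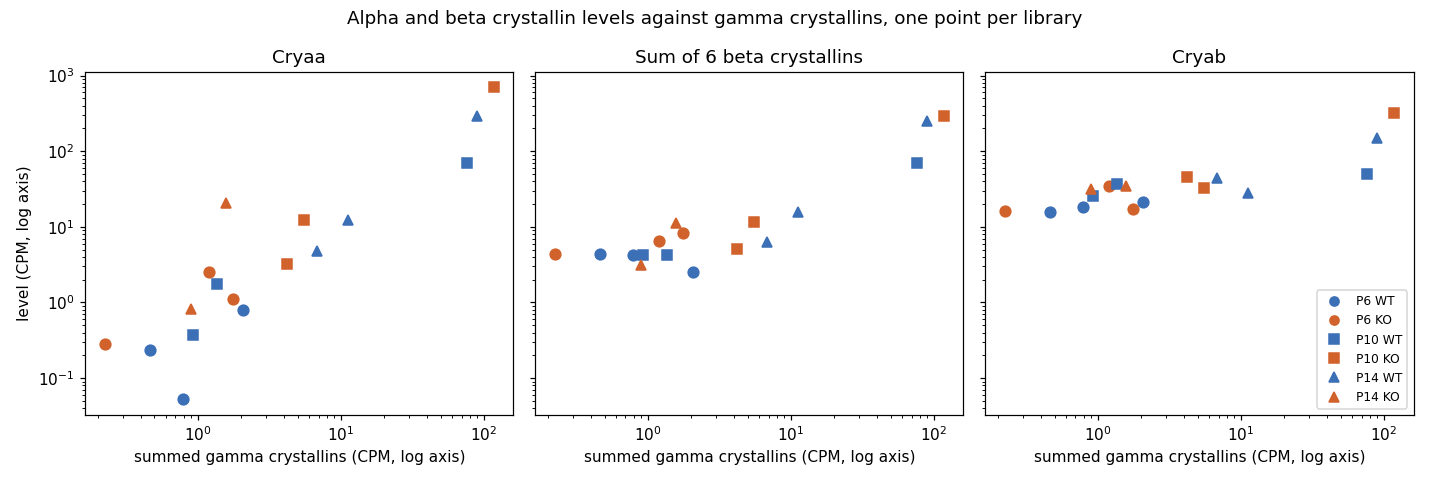
Level of Cryaa, of the 6 beta crystallins summed and of Cryab (CPM, log axes) against the summed gamma crystallins (CPM, log axis), one point per library, with shape for age and colour for label. The 3 libraries with 76.6 CPM of gamma crystallins or more are at the upper right of all panels, while Cryab stays between 15.5 and 45.8 CPM over the remaining range of 0.224 to 11.3 CPM.

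Differences between KO and WT were fitted for all 16372 genes that passed the filter on low counts, with one mean per group. All 8 genes passed it, both with the 17 libraries and without the 3 set apart. Several are near the floor in most libraries and passed partly through the libraries where they are high. The call rule was an adjusted p under 0.05 (edgeR quasi-likelihood test with Benjamini-Hochberg adjustment), and it called 0% of genes at each of the 3 ages. DESeq2 called 51, 9 and 0 genes and limma-voom 0 at each age. At an unadjusted p under 0.05 edgeR counted 1157, 484 and 354 genes. At the study's own threshold, an unadjusted p under 0.1, the percentages were 13%, 6.58% and 4.5%.

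At P6, 7 of the 8 genes had a fitted log2 difference above 0 and the median over them was 0.79, beside -0.0042 over all genes. Crybb1 had a difference of 1.69 (standard error 1.62), Cryab 0.31 (0.73) and Crybb3 0.63 (1.40). Cryba4 was at -0.11 (1.74). Every standard error but that of Crybb1 exceeded its difference. Crybb1 was the only one with each KO library above each WT library, a pattern that 5.74% of all genes showed, and none had the opposite pattern, which 6.32% showed. Without the 3 libraries, none of which is from P6, the median was 0.80 and the Crybb1 difference 1.69 with a standard error of 0.52, since the shared estimate of spread was smaller.

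At P10 all 8 genes had a fitted difference above 0, from 1.45 for Crybb1 to 3.31 for Cryaa, with a median of 1.88 beside -8.1e-05 over all genes. Cryab had a difference of 1.84 (standard error 0.72), and Cryaa 3.31 (1.80). The sign changed when P10 KO replicate 1 was left out and P10 WT replicate 2 was kept. Without P10 KO replicate 1 the median was -1.53 and 7 of 8 differences were below 0, with Cryaa at -1.63, Crybb3 at -2.57 and Cryab at 0.065. Without P10 WT replicate 2 it rose to 4.79. With the 3 libraries set apart left out, the median was 1.65, on 2 libraries of each label. Cryaa then had 2.84 (1.28) and Cryba4 2.14 (0.87), while Crybb3 had -1.22 (0.55) and Cryab 0.32 (0.33). No gene had the KO libraries all above or all below those labelled WT in the full set, patterns that 4.26% and 5.17% of all genes showed.

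At P14 all 8 genes had a fitted difference below 0, from -4.47 (standard error 1.90) for Cryba1 to -1.18 (0.81) for Cryab, with a median of -3.31 beside -0.0062 over all genes. A single library carried most of it. Without P14 WT replicate 1 the median was -0.21, and 3 of the 8 differences were above 0. Cryaa was then at 0.34 (standard error 1.07), Crybb3 at 0.42 (0.52) and Cryab at -0.13 (0.32) without all 3 libraries, while Cryba1 stayed at -1.22 (0.70) and Cryba4 at -1.52 (0.84). Crybb1 was the only gene with both KO libraries below each WT library, a pattern in 5.39% of all genes, and none had the opposite pattern, found in 6.21%. The gene with no overlap was the same at P6 and P14, with opposite signs.

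**Figure D4:**
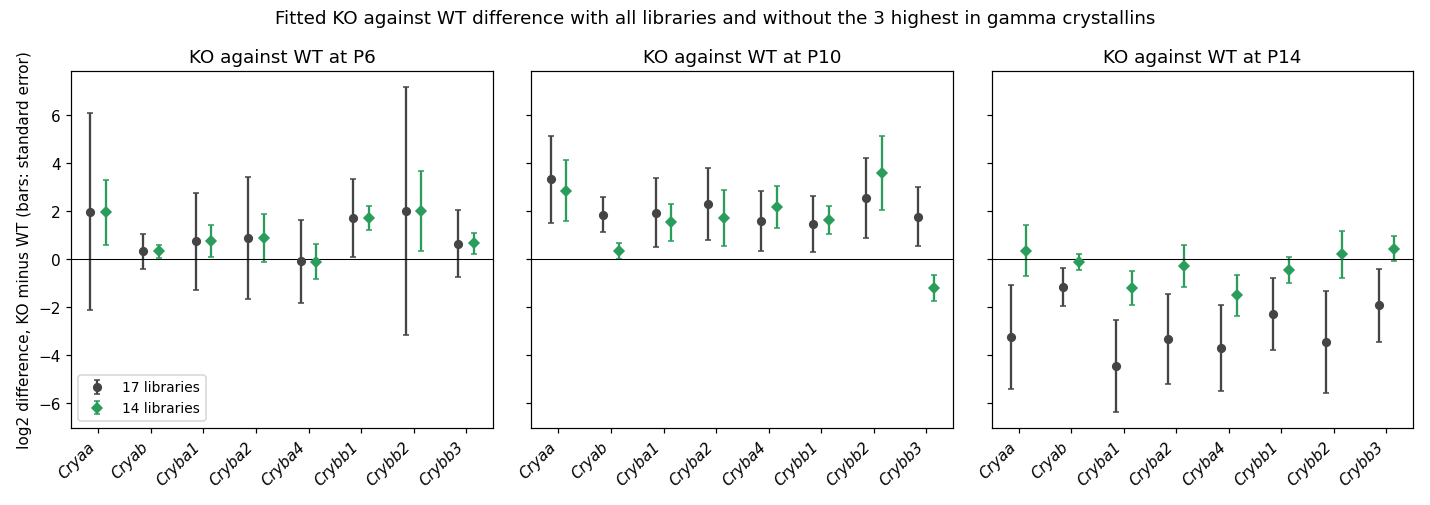
Fitted log2 difference of KO minus WT for each gene at P6, P10 and P14, with the 17 libraries (grey circles) and without P10 WT replicate 2, P10 KO replicate 1 and P14 WT replicate 1 (green diamonds). Bars are standard errors. The P6 values do not move, the P10 value of Cryab falls from 1.84 to 0.32 and that of Crybb3 turns to -1.22, and the P14 values go from a median of -3.31 to one of -0.21.

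With age, in the libraries labelled WT, edgeR called 22.7% of all genes from P6 to P10 and 42.9% from P10 to P14. With the 3 libraries left out it called 3104 and 3655 of 16263 genes in these steps. The fitted differences of the 8 genes from P6 to P10 were all above 0, with a median of 3.27. They ranged from 1.04 (standard error 0.73) for Cryab to 6.31 (3.18) for Crybb2, whose fitted value rests on 2 counts in all P6 WT libraries together. Without the 3 libraries the median was 0.36, and Cryab, at 0.78 (0.30), and Cryaa, at 1.65 (1.52), were the highest while Cryba4 had -0.75 (0.88). Cryab was also the only gene with each P10 WT library above each P6 WT library, as for 22% of all genes, and no gene had the reverse order, found in 21.4%. From P10 to P14 the median was 1.35 with all libraries, -1.56 without P14 WT replicate 1, and 1.85 without all 3. In that last set Cryaa had a difference of 2.96 (1.28) and Cryba1 2.28 (0.76), on 2 libraries of each age, while Cryab had 0.20 (0.33) and Crybb3 -0.72 (0.52). No gene was without overlap between P14 and P10 WT libraries, where 25.1% of all genes were higher and 28.9% lower in every library.

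The spread between libraries of a group was among the highest of all genes. The genes were selected on levels where single libraries stood far above the others, so this follows from the selection. The ranks are given as a description. On the log2(CPM + 0.5) scale the SD within groups was 2.74 for Cryaa and 0.98 for Cryab, against a median of 0.19 over all genes tested. By that SD Cryaa ranked 14 of 16372 genes, Crybb2 30, Cryba1 35 and Cryab 178. Without the 3 libraries it was 1.33 for Cryaa, 0.74 for Cryba1, 0.60 for Crybb2 and 0.39 for Cryab, against a median of 0.18 over all genes tested in the same 14 libraries.

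The genes whose pattern over the 17 libraries was most like the mean of the 8 all came from the lists of gamma crystallins and lens fibre genes. Likeness was the Pearson correlation of log2(CPM + 0.5) with the mean of the 8 genes, each centred, and it is given as a description, since the 3 libraries high in lens genes set most of it. The 10 highest were Crygs, Crygn, Crygc, Crygd, Crygf, Cryge, Crygb, Lctl, Mip and Grifin, with r from 0.98 to 0.89 and Spearman's rho from 0.42 to 0.88. Without the 2 libraries farthest from the median of that mean, P10 KO replicate 1 and P14 WT replicate 1, r was between 0.63 and 0.91. Over the 14 libraries r was still 0.76 for Crygs and 0.72 for Crygd, but 0.36 for Mip and 0.10 for Grifin, and Lctl had no counts in them.

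Among the 8 genes, the 21 pairs without Cryab had r from 0.79 to 0.98 over 17 libraries. Over the 14 libraries their r ran from -0.19 to 0.93 with a median of 0.59, which was highest for Cryaa with Crybb2. The low end was Crybb3, with r between -0.19 and 0.053 against the other 6. The 7 pairs with Cryab ran from -0.54, with Crybb3, to 0.65, with Cryaa. Points share depth, age and library, and values near the floor weaken r.

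Müller glia, the radial glia of the retina and a known source of Cryab, were followed by 11 markers. Their sum was 1556 to 1751 CPM in P6 WT and 1652 to 2221 CPM in P6 KO libraries. It was 2614 to 3141 and 2840 to 4707 CPM at P10, and 3727 to 4156 and 4146 to 5127 CPM at P14. From P6 to P10 in WT, 6 of the 11 rose and none fell, and from P10 to P14 3 rose and none fell (edgeR, adjusted p under 0.05). In the 14 libraries these counts were 6 and 2 risen. With all 17 libraries, Glul, the glutamine synthetase of these cells, rose by 1.45 on the log2 scale from P6 to P10 (standard error 0.26, adjusted p = 0.000993, edgeR). Aqp4, their water channel, rose by 4.50 in the same fit (0.56, adjusted p = 9.5e-05, edgeR). In P6 KO replicate 1, where Cryab was 34.3 CPM, 7 of the 11 markers were above and 1 was below all other P6 libraries. Glul was 519 CPM against 295 to 317 in the other P6 libraries, Aqp4 6.93 against 0.756 to 1.63, and Abca8a 29.2 against 2.73 to 7.40, while Vim and Dkk3 were inside the range of the others. Gamma crystallins summed to 1.19 CPM in that library, inside the P6 range. Other lists had genes above all other P6 libraries there too. Of 8 rod markers 4 were above and 0 below, and of 19 crystallin transcription factors 4 were above and 2 below. In P10 KO replicate 2, the highest of the 14 libraries in Cryab, 9 of the 11 markers were above all other P10 libraries, with Glul at 1735 CPM against 724 to 1035. Endothelial markers summed to 635 CPM in that library, against 390 to 440 CPM in the other P10 libraries, with 3 of 5 above all of them. Of the 5 blood markers, 4 were above all other P10 libraries. P14 KO replicate 1 had the highest Müller sum of all libraries, 5127 CPM, with 34.5 CPM of Cryab. P14 WT replicate 4, with 44.1 CPM of Cryab, had Müller markers inside the P14 range. It also had the highest sums of blood markers, 652 CPM, fibroblast markers, 136 CPM, and pigment epithelium markers, 1427 CPM, of all libraries. The part of these cells in the level of Cryab was not tested.

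**Figure D5:**
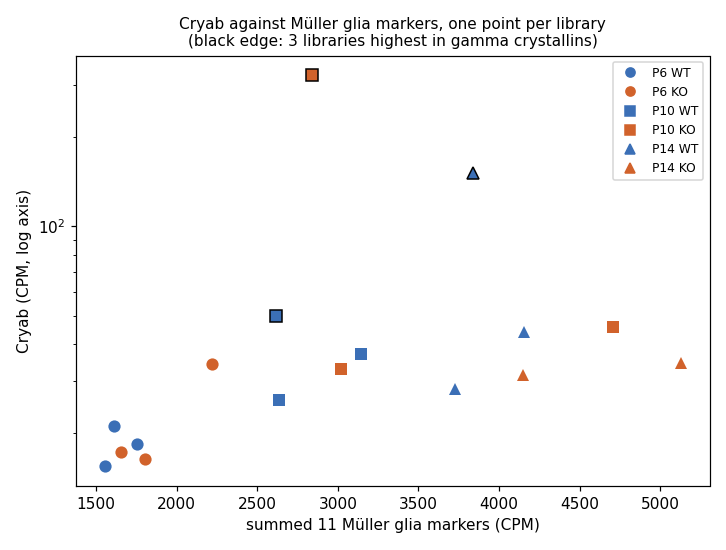
Cryab (CPM, log axis) against the summed 11 Müller glia markers (CPM), one point per library, with shape for age and colour for label. The points of P10 WT replicate 2, P10 KO replicate 1 and P14 WT replicate 1 have a black edge, and the last 2 stand at 325 and 151 CPM of Cryab while their Müller sums, 2840 and 3839 CPM, are within those of other libraries.

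The remaining lists give the family's neighbours. In the 14 lists together, 119 genes passed the filter on low counts. KO against WT at P6, P10 or P14 gave 0 of them with an adjusted p under 0.05 in edgeR. At an unadjusted p under 0.1, the P6 comparison had 8 higher and 6 lower, that of P10 had 12 and 11, and that of P14 had 2 and 14. In the 14 libraries 111 of these genes were tested, and the same counts were 9 and 5, 6 and 2, and 2 and 15. Among the gamma crystallins, 0 of 8 were past that threshold at P6 and P10 and 7 of 8 were lower at P14, with Crygb at -4.97 (standard error 2.03, unadjusted p = 0.0264, adjusted p = 1, edgeR). With the 14 libraries 6 of these genes were tested, and 6 of 6 were lower at P14 with a median of -2.86. Over all genes, 588 of 16263 were past that threshold at P14 in this fit. The 3 libraries were left out on the sum of these same genes, so their values in the 14 libraries are a description only. Crygb was at -3.17 (standard error 1.005, adjusted p = 1, edgeR), while 1 of the 6 was higher at P6 and 1 at P10. Being close copies measured in the same libraries, they do not count as independent genes. Crygc had 1.48 and 0.76 CPM in P14 WT replicates 3 and 4 and at most 0.45 CPM in the rest of the 14. It passed the filter through those libraries, which set its direction. Of 11 lens fibre genes tested, 5 were higher and 1 lower at P10. Without the 3 libraries 8 of these genes were tested at P10, with 1 higher and 0 lower at that threshold.

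Small heat shock proteins and other chaperones, the functional relatives of Cryaa and Cryab, were listed with 16 genes. Their sum was 4380 to 5717 CPM in the 17 libraries, led by Hsp90aa1, Hspa8 and Hsp90ab1. In P10 KO replicate 1, P14 WT replicate 1 and P10 WT replicate 2 it was 4616, 5257 and 5717 CPM. Of these, 1 was higher and 1 lower in KO at P6 at an unadjusted p under 0.1, which were Dnajb1, a co-chaperone, and Hsph1, of the HSP110 family, in that order. At P10 Hsp90aa1 was the only one, at -0.22 (standard error 0.085, unadjusted p = 0.0202, adjusted p = 1, edgeR), and there was none at P14. From P6 to P10 in WT, 7 rose and 1 fell, and from P10 to P14 3 fell (edgeR, adjusted p under 0.05), Hsp90ab1 in both steps. When the 3 libraries were left out, 14 were tested, 3 rose and 1 fell in the first step and 2 fell in the second, and none was past an unadjusted p of 0.1 in KO at P10. Over all genes that fit called 3104 of 16263 in the first step and 3655 in the second.

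Transcription factors known to act on crystallin genes in the lens are also retinal regulators. Pax6, a master regulator of eye development that also works in amacrine and ganglion cells, measured 293 to 380 CPM in the 17 libraries, and Prox1 104 to 447 CPM. Of 17 tested, none passed an adjusted p of 0.05 in KO against WT. At an unadjusted p under 0.1, 1 was higher and 1 lower at P6, 1 higher at P10 and 1 higher at P14. The sum of the list, 1459 to 2000 CPM over 17 libraries, was 1815, 1947 and 1550 CPM in P10 WT replicate 2, P10 KO replicate 1 and P14 WT replicate 1. From P6 to P10 in WT, Prox1 rose by 1.48 (standard error 0.19, adjusted p = 0.000103, edgeR), 2 others fell, and from P10 to P14 1 rose and 4 fell. Over the 14 libraries 2 rose and 2 fell in the first step and 1 rose and 2 fell in the second, and at an unadjusted p under 0.1 none was lower at P6 and none differed at P10.

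Genes named after crystallins without belonging to these families were led by Crym, the mu crystallin, at 94.8 to 317 CPM. Of 10 tested, 0 had an adjusted p under 0.05 in KO against WT and Cryl1, the lambda crystallin, was lower at P6 at -0.43 (standard error 0.16, unadjusted p = 0.0185, adjusted p = 0.594, edgeR). From P6 to P10 in WT 2 rose, Crym and Cryz, and from P10 to P14 2 rose and 3 fell. With the 14 libraries 9 were tested, and 1 rose and 1 fell from P10 to P14.

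The 8 other marker lists were those of astrocytes, ganglion cells, rods, pigment epithelium, cornea, endothelium, fibroblasts and blood, with 49 genes tested. At an unadjusted p under 0.1, 3 were higher and 3 lower in KO in the P6 comparison, with 2 and 9 in that of P10 and 0 and 6 in that of P14. Over the 14 libraries 48 were tested, with 3 and 3, 1 and 2, and 0 and 9. At P10 5 of 8 rod markers were among the lower ones, with Sag, the rod arrestin, at -0.37 (standard error 0.14, unadjusted p = 0.0153, adjusted p = 1, edgeR). With the 14 libraries 1 of 8 was lower, and Sag was at -0.34 (standard error 0.16). Summed rod markers were 13553 CPM in P10 KO replicate 1, the library with the most Cryaa, and 17575 to 26207 CPM in the other P10 libraries. In P10 WT replicate 2 they were 20358 CPM and in P14 WT replicate 1 28785 CPM, against 25270 to 35467 CPM in the other P14 libraries. All 5 blood markers were lower in KO at P14 at that threshold, with and without the 3 libraries. Hbb-bs had 311 CPM in P14 WT replicate 4 and 14.8 to 50.8 CPM in the other 4 libraries of that age, and its difference of -1.89 became 0.27 without that library. The globin genes are close copies, and the split of reads among them is uncertain. Gfap, the intermediate filament of astrocytes and reactive Müller glia, had a difference of 0.75 (standard error 0.20, unadjusted p = 0.0017, adjusted p = 0.358, edgeR) at P6.

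Transcript counts gave the isoforms behind these levels. Cryaa and Cryab each had 1 transcript in the table, and their counts at the gene and transcript level were the same. Of the Cryba1 counts, 94.0% were assigned to the protein-coding transcript and 5.98% to one with a retained intron, which reached 180 counts in P14 WT replicate 1 beside 4084 of the coding one. Crybb1 was split 52.1% to 47.9% between 2 coding transcripts. In P10 WT replicate 2 all 151 counts were assigned to the first of them, and in P14 WT replicate 1 56.8 of 238 were. These are estimates, and how the authors' counting divided reads among transcripts of the same gene is uncertain. Sequence shared with other genes was small. No 31-base word of Cryaa, Cryab, Cryba4, Crybb1 or Crybb2 occurred in a transcript of another gene in the table. In Cryba1 3.90% of words did, in Crybb3 0.698% and in Cryba2 0.410%. Cryba1 lies within the span of Nufip2 on the opposite strand, and whether the counting used the strand of the reads is not given in the sources used here.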

How the data were processed

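Polyadenylated RNA of whole retinas was sequenced with a stranded kit in 17 libraries. The authors deposited estimated counts per gene and per transcript, not scaled and not pooled. The submitters' processing notes name Trimmomatic 3.6, kallisto 0.44, edgeR 3.24.2 and limma 3.38.3 with the GRCm38 genome, and the study's methods give Ensembl release 84. Of the deposited estimated counts, 39.8% were not whole numbers and were rounded, by at most 0.5. The authors' table of scaled CPM was not used, and of their table of comparisons (fold changes and p-values of edgeR and limma) only the pairing of symbols with identifiers was used.

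The members and gene lists were chosen with earlier results of these data known. Of 131 list entries, 129 matched a gene in the table. Groups were taken from the labels. Genes were filtered by group with filterByExpr, which kept 16372 of 32177, scaled by TMM and fitted with one mean for each of 6 groups by edgeR 4.0.16 (R 4.3.3, quasi-likelihood F-test, two-sided, Benjamini-Hochberg adjustment over all genes tested). The standard error of a difference in edgeR was its absolute value divided by the square root of F, so it restates the fit's F. CPM used the effective library sizes, and TPM used transcript counts and annotated lengths. A pseudocount of 0.5 CPM was used on the log2 scale. Genes outside the 8 were named if their adjusted p was under 0.05 or, in a list with none, their unadjusted p was under 0.05 in KO against WT, or if they were among the 3 highest of a list or the 10 most alike in pattern. A few markers of lens fibre, cornea and blood were named after their values were seen. Replicates of a group differed by more than sampling noise, with a chi-square per gene of 10.4 to 49.8. Alternatives were DESeq2 1.42.0, limma-voom (limma 3.58.1), DESeq2 size factors, no filter (genes with at least 1 count in at least 2 libraries), summed transcript counts, a replicate block at P10, each library left out in turn, a pseudocount of 2 and, chosen after the data were seen, the 3 libraries high in gamma crystallins left out. Scripts were tested on simulated data. One gene of the lens fibre list is not reported here.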

Additional observations from a re-analysis of the deposited data

Results flagged for a closer look

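For 4 genes every KO library was on one side of the WT mean of log2(CPM + 0.5) at one age and on the opposite side at another. Cryba1 had a log2 difference of 0.72 at P6 and -4.47 at P14, so the P14 difference minus the P6 difference was -5.19. Crybb1 went from 1.69 at P6 to -2.30 at P14, a change of -3.99. For these crystallins the change was not tested, since their levels chose them, and the P14 values include P14 WT replicate 1. Cryl1, the lambda crystallin, went from -0.43 to 0.06 between the same ages, a change of 0.482 (unadjusted p = 0.0634, adjusted p = 1, interaction term in edgeR). Cldn5, a tight junction gene of endothelium, went from -0.47 at P10 to 0.01 at P14, a change of 0.486 (unadjusted p = 0.163, adjusted p = 1, interaction term in edgeR). At P14 its KO libraries, at 11.998 and 12.84 CPM, were inside the WT range of 8.61 to 16.4 CPM, and on the CPM scale the first was below the WT mean. Over all 16372 genes the interaction between P14 and P6 gave 0 genes with an adjusted p under 0.05 and 378 with an unadjusted p under 0.05.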

How the results depend on the processing

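KO against WT gave 0 called genes at each age in edgeR. DESeq2 called 51 at P6 and 9 at P10, the fit with no filter called 2 at P6, and the fit without the 3 libraries high in gamma crystallins called 1 at P14. The last fit called 3655 genes from P10 to P14 in WT, against 7019 with all 17 libraries. Leaving out 1 library at a time, the called genes ranged from 0 to 8 at P6, from 0 to 2 at P10 and from 0 to 2 at P14. They ranged from 2540 to 4080 between P6 and P10 in WT and from 5110 to 7094 between P10 and P14. The median difference of the 8 genes ranged from 0.59 to 1.14 at P6, from -1.53 to 4.79 at P10, from -5.20 to -0.21 at P14, from 0.33 to 3.80 between P6 and P10 in WT and from -1.56 to 4.55 between P10 and P14. Without all 3 libraries it was -0.21 at P14 and 0.36 between P6 and P10 in WT. The libraries whose absence gave the extremes were P10 KO replicate 1 and P10 WT replicate 2 at P10, and P14 KO replicate 1 and P14 WT replicate 1 at P14. Hbb-bs at P14 ranged from -3.05 to 0.265, the latter without P14 WT replicate 4. The cause was not tested. Of the alternatives that bear on called genes or on medians, 207 were labelled the same, 18 moved and 2 reversed. A count was the same if equal or close in ratio. A median was the same if it shifted by less than 1.639, the SD within groups of the median over the 8 genes. Reversed medians changed sign. Of the 207, 157 left out 1 library, often one from neither of the groups compared.

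With the replicate number as a block at P10, 0 genes were called and the median was 1.66. The deviations of same-numbered P10 libraries had r of -0.32, -0.29 and 0.032, and 1 of 6 libraries correlated best with its own number, so the numbers were not taken as pairs. Counts near the floor limit Crybb2, Cryba2 and Cryba4 outside the 3 libraries.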
